A study of Mus musculus with 4 samples.

Results

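The miR-30 family was followed by small RNA sequencing of the main olfactory epithelium, the sheet of odour-sensing neurons and supporting cells at the back of the nose. Its members are the mouse 5p arms mmu-miR-30a-5p, mmu-miR-30b-5p, mmu-miR-30c-5p, mmu-miR-30d-5p and mmu-miR-30e-5p and the 3p arms mmu-miR-30a-3p, mmu-miR-30b-3p, mmu-miR-30c-2-3p, mmu-miR-30d-3p and mmu-miR-30e-3p. They were taken by name from the authors' deposited table, where all 10 were present among 1167 miRNAs. The samples were 2 libraries from AC3-/- mice, which lack adenylyl cyclase 3, the enzyme that makes cAMP when an odour receptor is activated, and 2 libraries from wild-type (WT) mice, all from C57BL/6 males 3 months of age. The labels give no further detail of the AC3-/- allele and do not say whether each library was made from its own mouse or from a pool. The p-values therefore describe the spread among 4 libraries, and that spread may be technical. The comparison asks how miRNA levels in this tissue differ when the signalling enzyme is missing.

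A miRNA is cut from one side, the 5p or the 3p arm, of a hairpin-shaped precursor, and usually one arm is kept in the silencing complex while the other is degraded. The kept arm finds messenger RNAs mainly through its seed, bases 2 to 8 from the 5′ end, so miRNAs that share a seed can bind largely the same targets. The miR-30 family is widely expressed in mammalian tissues. In human cells it is known to restrain Snail-driven loss of the epithelial state, and miR-30a to act on the autophagy gene BECN1.

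Sequences are shown for the arms that RefSeq lists, because shared seeds group the family and near-identical arms limit how reads can be assigned. A mature sequence was matched for 6 of the 10 arms (RefSeq, GRCm38.p6); miR-30b-5p, miR-30b-3p, miR-30d-5p and miR-30d-3p are given by name. Of the 1167 miRNAs, 947 had a mature sequence and could be searched for a shared seed. The rest, miR-30b-5p and miR-30d-5p among them, could not. Capitals mark bases 2 to 8. The matched 5p arms share the seed GUAAACA with miR-384-5p, a miRNA outside the list and the only other row found to carry it:
miR-30a-5p: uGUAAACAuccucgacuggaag
miR-30c-5p: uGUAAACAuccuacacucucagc
miR-30e-5p: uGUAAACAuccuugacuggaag
miR-384-5p: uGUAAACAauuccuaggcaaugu

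The matched 3p arms fall into 2 seeds, one shared by miR-30a-3p and miR-30e-3p and one by the 3p arms of the 2 miR-30c precursors:
miR-30a-3p: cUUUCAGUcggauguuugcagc
miR-30e-3p: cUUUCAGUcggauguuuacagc
miR-30c-2-3p: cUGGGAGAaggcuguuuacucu
miR-30c-1-3p: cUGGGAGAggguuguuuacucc

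Counted from 1 at the 5′ end, miR-30a-5p differs from miR-30e-5p by C13U alone, and miR-30a-3p from miR-30e-3p by G18A alone. The sources used here do not say how many mismatches were allowed when reads were assigned, so the split of reads between miR-30a and miR-30e is uncertain on both arms. miR-30c-5p is identical in its 2 precursors and cannot be divided between them.

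The precursors lie in pairs. Mir30a is on the plus strand of chromosome 1 from 23272269 to 23272339, outside any annotated gene, and Mir30c-2 lies 19361 bases downstream, from 23291701 to 23291784, in the exon of the noncoding host gene Gm27028. Mir30e, on chromosome 4 from 120772606 to 120772697, and Mir30c-1, from 120769534 to 120769622, are 2983 bases apart on the minus strand, both in introns of Nfyc, which encodes a subunit of the CCAAT-binding factor NF-Y (GRCm38). miR-30b and miR-30d are known to form the remaining pair. The hairpins of Mir30a and Mir30e are printed to show where the arms compared below sit, with both mature arms in capitals:
Mir30a: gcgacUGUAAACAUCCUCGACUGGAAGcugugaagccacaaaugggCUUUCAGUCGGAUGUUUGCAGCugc
Mir30e: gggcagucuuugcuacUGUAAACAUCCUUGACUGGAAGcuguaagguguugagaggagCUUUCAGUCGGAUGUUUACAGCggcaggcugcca

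The authors' deposited table holds 1 mean of normalised read counts per genotype, a log2 fold change of AC3-/- over WT that is shrunken toward 0, a p and an adjusted p. The sum of the means was 8739148 for AC3-/- and 12320877 for WT, from 19201686 to 20063529 reads over both AC3-/- libraries and 21071945 to 23190561 over both WT libraries. Values of single libraries, called a and b within each genotype, were worked back from the means where only 1 pair of whole read numbers gives the printed digits. This was possible for 6 of the 10 miR-30 arms. WT library b stood apart from the rest. Of the miRNAs with library values whose mean was 10 or more, 6.24% differed by 2-fold or more within the AC3-/- pair and 27.2% within the WT pair. All 8 sensory-epithelium miRNAs listed as markers were in the table, with 20.7% of the AC3-/- total and 44.0% of the WT total. Only 1 of these 8 could be traced to single libraries. Its level was 17615 normalised reads in WT library a but 41585 in WT library b. The AC3-/- values, 18849 (a) and 22274 (b), lay between these. For the rest, the spread between libraries behind the genotype shares is unknown. No listed marker of any cell type had a mean of 0. The 6 leukocyte markers summed to 15694 and 20157 normalised reads in AC3-/- libraries a and b, and to 17861 and 6369 in WT libraries a and b. For the 5 of 6 markers of multiciliated cells with library values the sums were 13839 and 26206 in AC3-/- and 30579 and 5971 in WT. Levels are of bulk tissue, where fewer cells of a type and less RNA per cell cannot be told apart.

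No miR-30 arm passed the adjusted p of 0.05 in the authors' deposited table, where 1 miRNA of 1167 did (0.0857%), and none had an unadjusted p under 0.05, which 41 miRNAs had (3.51%), 23 of them lower in AC3-/- (1.97%). By the size-factor scaling of the authors' deposited table, all but 1 of the 10 arms had a log2 fold change below 0, with a median of -0.30 and a range of -0.48 to 0.00, but scaled to table totals all but 1 lay above 0. Over all miRNAs, by the authors' deposited table, 50.5% lay below 0 with a median of -0.01, but the share grew with abundance: 60.8% of the 296 miRNAs averaging 100 or more lay below 0, with a median of -0.09, and 75.8% of the 62 averaging 10000 or more, with a median of -0.17. Scaling each genotype to its own table total moves every unshrunken log2 ratio up by 0.50. These totals include the 8 sensory-epithelium markers, with 20.7% of the AC3-/- total and 44.0% of the WT total. A scaling to totals without them was not tested. The unshrunken miR-30 median moves from -0.33 to 0.17 with this scaling. It lies beside 0.40 for all miRNAs averaging 100 or more and 0.31 for those averaging 10000 or more. Values scaled to table totals are unshrunken throughout, unlike the authors' log2 fold changes. Because every miRNA moves by the same amount, the place of the family among the unshrunken ratios stays the same by construction. The plot of all miRNAs by abundance places the arms within the cloud of the other miRNAs.

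**Figure D1:**
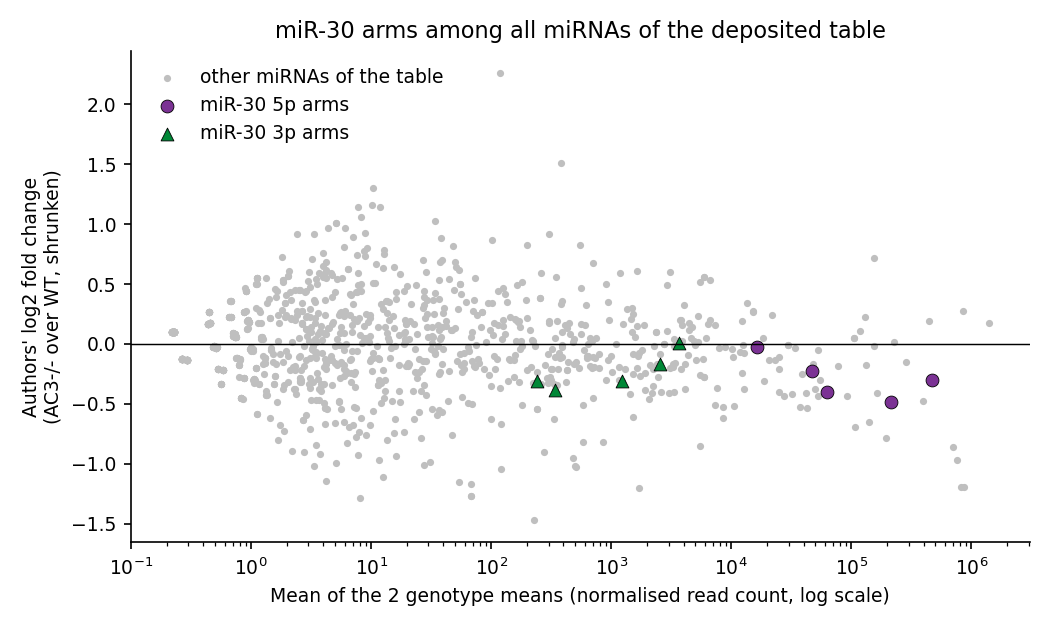
Authors' shrunken log2 fold change (AC3-/- over WT, vertical axis) against the mean of the genotype means (normalised read count, log scale) for each miRNA of the deposited table, with the miR-30 5p arms as circles and the 3p arms as triangles. By the authors' scaling the arms sit between -0.48 and 0.00 (scaled to table totals, all but 1 lie above 0), within the spread of miRNAs of like abundance.

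The family was abundant on the strength of its 5p arms. The 10 arms together made up 8.21% of the AC3-/- total and 7.54% of the WT total. The 10 most abundant miRNAs of the table, miR-30a-5p among them, were also left out of both the arms and the total. The remaining arms then made up 9.12% of the smaller total in AC3-/- and 10.5% in WT. This is the other order of the genotypes, with both the set of arms and the total changed. The miRNAs left out of the total include the sensory-epithelium markers miR-200b-3p, miR-183-5p, miR-182-5p and miR-200a-3p. The 5p arms were 98.9% of the family in AC3-/- and 99.1% in WT. miR-30a-5p alone made up 58.8% of the family in AC3-/- and 56.7% in WT, and ranked 4 in AC3-/- and 7 in WT among all miRNAs of the table. miR-30d-5p followed with 24.5% in AC3-/- and 27.3% in WT, miR-30e-5p with 7.36% and 7.73%, miR-30c-5p with 6.02% and 5.56%, and miR-30b-5p with 2.26% and 1.78%. This order of the 5p arms was the same in both genotypes. Ligation and PCR favour some sequences, so the order describes reads and not molecule numbers.

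**Figure D2:**
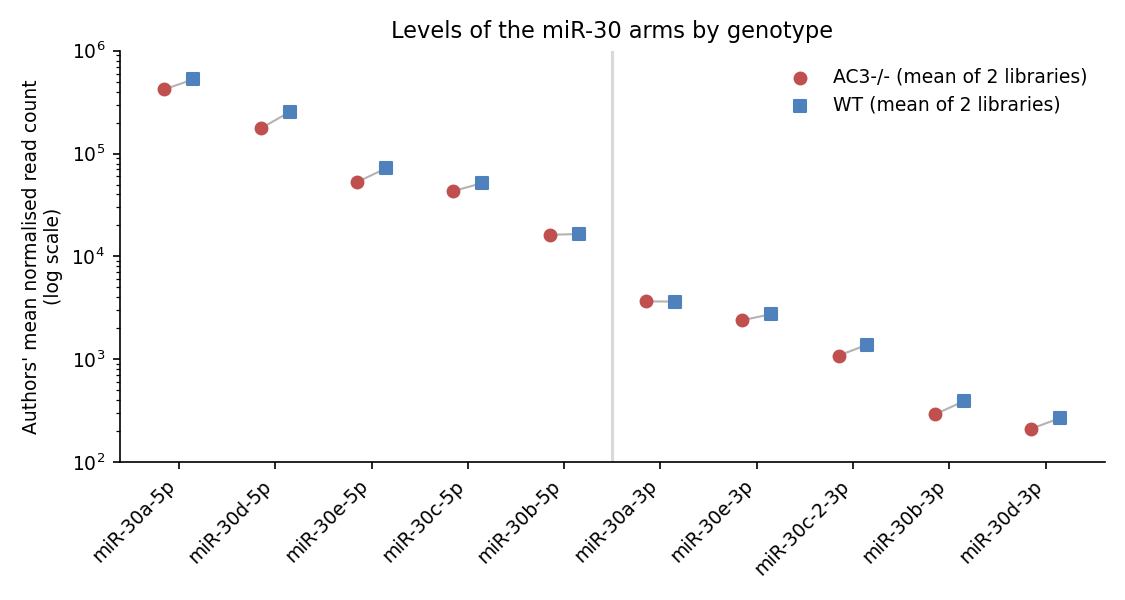
Authors' mean normalised read count (log scale) of each miR-30 arm in AC3-/- (circles) and WT (squares), each the mean of 2 libraries as deposited, with the 5p arms left of the grey line. The levels run from 422172 in AC3-/- and 526677 in WT for miR-30a-5p to 210.7 and 267.0 for miR-30d-3p.

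Among the 5p arms, usually the kept strands, all 5 had a log2 fold change below 0 in the authors' deposited table by the authors' scaling, with a median of -0.30; scaled to table totals 4 of the 5 lay above 0. In the authors' deposited table miR-30d-5p had means of 175717 in AC3-/- and 253577 in WT, with the family's lowest p (log2 fold change -0.48, p = 0.0968, adjusted p = 0.9395). miR-30e-5p had means of 52861 in AC3-/- and 71823 in WT in the authors' deposited table (log2 fold change -0.40, p = 0.162, adjusted p = 0.9395). miR-30a-5p, the most abundant, had means of 422172 in AC3-/- and 526677 in WT there (the authors' deposited table, log2 fold change -0.30, p = 0.256). miR-30a-5p and miR-30e-5p differ by a single base, and both lay on the same side. miR-30c-5p had means of 43246 in AC3-/- and 51601 in WT in the authors' deposited table (log2 fold change -0.23, p = 0.458). miR-30b-5p, the least abundant 5p arm, had nearly equal means of 16205 in AC3-/- and 16504 in WT in the authors' deposited table (log2 fold change -0.02, p = 0.941).

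Of the 5p arms, only miR-30b-5p could be traced to single libraries. It had 14256 and 18154 normalised reads in AC3-/- libraries a and b, against 14725 and 18283 in WT libraries a and b (16364, 19944, 13858 and 15634 reads). The genotypes overlapped throughout, and the libraries of a genotype lay further apart than the genotype means. limma, fitted on log2(normalised value + 1) to every miRNA that had library values and averaged 10 or more, gave a log2 difference of -0.03 with a 95% interval of -0.59 to 0.53 for miR-30b-5p (adjusted p = 0.974). For miR-30c-5p, 4 pairs of read numbers give the AC3-/- mean and 2 give the WT mean; the WT pairs are 45733 and 57470 normalised reads in libraries a and b, or 102039 and 1164. For miR-30e-5p, 4 pairs give the AC3-/- mean and 3 the WT mean, and for miR-30a-5p and miR-30d-5p at least 95 pairs give each mean. For these arms the spread between libraries is therefore unknown, and the authors' p is the only test at hand.

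The 3p arms, which are the less abundant strands, all have library values. miR-30a-3p had 3648 and 3649 normalised reads in AC3-/- libraries a and b, against 2852 and 4420 in WT libraries a and b. The AC3-/- values lay between those of the WT libraries, and the authors' deposited table gives a log2 fold change of 0.00 (p = 0.990, adjusted p = 0.995). miR-30e-3p, one base different from it, had 2420 and 2368 in AC3-/- against 2142 and 3336 in WT. This is the same pattern, with close AC3-/- libraries lying between a low and a high WT library (in the authors' deposited table, log2 fold change -0.17, p = 0.631). miR-30c-2-3p had 1247 and 921 in AC3-/- against 1228 and 1539 in WT, with AC3-/- library a just above WT library a (in the authors' deposited table, log2 fold change -0.31, p = 0.356).

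The 3p arms of miR-30b and miR-30d did not overlap between the genotypes. miR-30b-3p had 276.2 and 304.9 normalised reads in AC3-/- libraries a and b, against 407.0 and 371.9 in WT libraries a and b. Both WT libraries were above both AC3-/- libraries, and this was the one arm with a lower value in WT library b than in WT library a (in the authors' deposited table, log2 fold change -0.38, p = 0.183, adjusted p = 0.9395). miR-30d-3p had 223.9 and 197.5 in AC3-/- against 248.6 and 285.3 in WT. Its gap between AC3-/- library a and WT library a was no larger than the spread within either genotype (in the authors' deposited table, log2 fold change -0.31, p = 0.314, adjusted p = 0.9395). So 2 of the 6 arms had both AC3-/- libraries below both WT libraries, where 16.9% of the miRNAs tested did, and no arm had both above, where 16.7% did. Scaled to table totals, the means of all 5 3p arms lay above 0 instead.

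The limma fit to the recovered libraries passed no miR-30 arm and no other miRNA at an adjusted p of 0.05 (0% of those tested), and 16 had an unadjusted p under 0.05, none of them a miR-30 arm. The log2 difference was -0.42 for miR-30b-3p, with a 95% interval of -1.23 to 0.39, and -0.34 for miR-30d-3p, with an interval of -1.16 to 0.48 (limma, adjusted p = 0.932 for each). It was -0.36 for miR-30c-2-3p, with an interval of -1.20 to 0.48, and -0.16 for miR-30e-3p, with an interval of -0.97 to 0.65 (limma, adjusted p = 0.932 for each). For miR-30a-3p it was 0.04, with an interval of -0.74 to 0.82 (limma, adjusted p = 0.974). For miR-30b-3p, miR-30c-2-3p and miR-30d-3p the intervals hold both no difference and an AC3-/- level more than 2-fold lower, so with 2 libraries per genotype these could not be told apart.

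**Figure D3:**
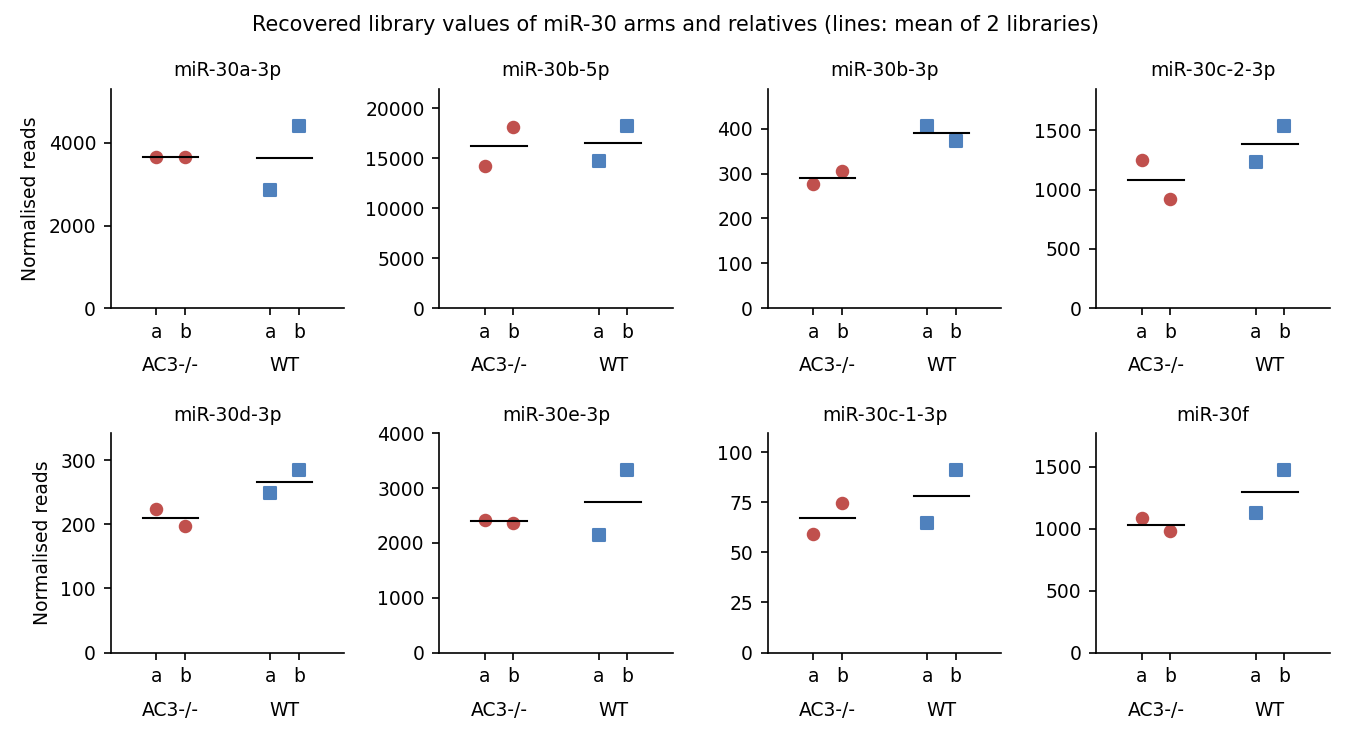
Normalised reads (linear scale from 0) in AC3-/- libraries a and b (circles) and WT libraries a and b (squares) for the 6 miR-30 arms with library values and for miR-30c-1-3p and miR-30f; lines mark the mean of 2 libraries. The genotypes do not overlap for miR-30b-3p, miR-30d-3p and miR-30f, and WT library b is the highest WT value in all but miR-30b-3p. Both AC3-/- libraries lay below both WT libraries in 16.9% of the miRNAs tested.

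Between the AC3-/- libraries the 6 arms had a median log2 ratio of b over a of -0.02, with a range of -0.44 to 0.35. Between the WT libraries the median was 0.32, with a range of -0.13 to 0.64, and 5 of the 6 arms were higher in library b. No arm reached 2-fold in either pair. The SD of the log2 ratio over the arms was 0.27 for the AC3-/- pair and 0.29 for the WT pair. Over all miRNAs with library values that averaged 100 or more it was 0.42 for the AC3-/- pair and 1.01 for the WT pair. The median log2 ratio of b over a for those miRNAs was 0.01 in the AC3-/- pair and -0.02 in the WT pair. Without WT library b, 3 of the 6 arms had a limma log2 difference below 0, with a median of -0.03, against 5 of 6 and -0.25 with all libraries. Without WT library a all 6 were below 0, with a median of -0.40. Over all miRNAs tested the median limma log2 difference was -0.02 without WT library b and 0.00 without WT library a. In these fits WT is 1 library, so the spread comes from the AC3-/- pair alone, the closer of the pairs, and the WT library is assumed to vary like it. They were therefore read for direction only, and their adjusted p-values are not given. The sums of the leukocyte and multiciliated markers given above also differed between the WT libraries, and their part in these values was not tested.

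The 5p arm outnumbered the 3p arm in every precursor, by ratios of very different size. In the means of the authors' deposited table, miR-30d had 834 5p reads per 3p read in AC3-/- and 950 in WT, and miR-30a 115.7 in AC3-/- and 144.8 in WT. For miR-30b the ratio was 55.8 in AC3-/- and 42.4 in WT, from the means of the authors' deposited table. For miR-30c over miR-30c-2-3p it was 39.9 in AC3-/- and 37.3 in WT, though the 5p arm there can come from both miR-30c precursors; with both 3p arms counted it was 37.6 and 35.3. For miR-30e it was 22.1 in AC3-/- and 26.2 in WT. The order of the precursors by this ratio was the same in both genotypes.

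Between the genotypes the log2 difference of this ratio, AC3-/- minus WT, was -0.32 for miR-30a, -0.25 for miR-30e, -0.19 for miR-30d, 0.10 for miR-30c and 0.40 for miR-30b, so the direction was not shared, and the precursors of a pair, miR-30b and miR-30d, lay on opposite sides. A common scaling of a genotype's libraries cancels from this ratio, but the weight of each library in the means does not. Of the family, only miR-30b has both arms by library: 51.6 and 59.5 in AC3-/- libraries a and b, against 36.2 and 49.2 in WT libraries a and b. These values did not overlap, but the WT libraries lay further apart than the gap between the genotypes, and the exact permutation test gave a two-sided p of 0.333, the smallest it can give with this design.

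**Figure D4:**
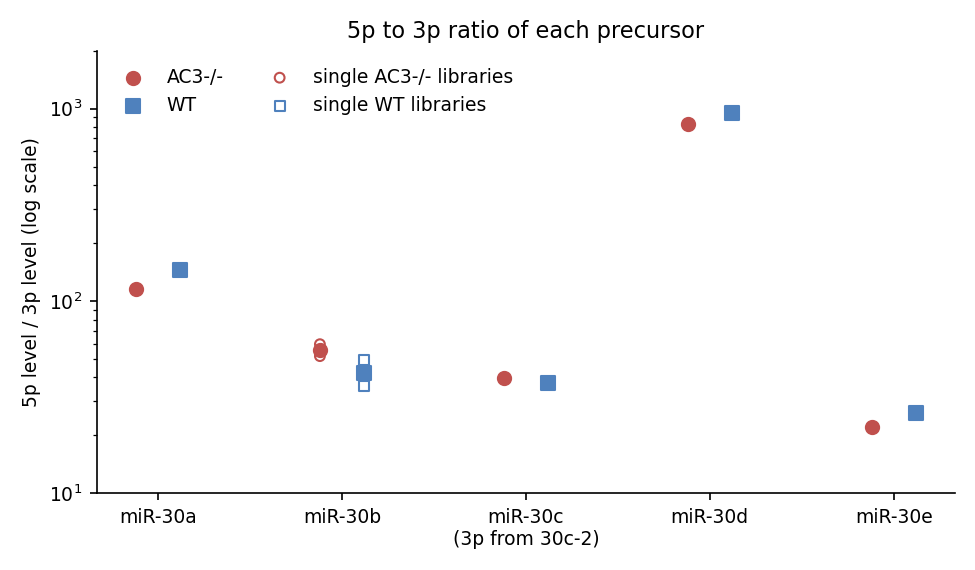
Ratio of the 5p level to the 3p level (log scale) for each miR-30 precursor in AC3-/- (circles) and WT (squares), from the deposited means, with single libraries as open symbols for miR-30b. The ratio runs from 22.1 in AC3-/- and 26.2 in WT for miR-30e to 834 and 950 for miR-30d.

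Grouped by genomic pair, the arms of miR-30a and miR-30c-2 had a median log2 fold change of -0.26 in the authors' deposited table, with 3 of 4 below 0. The arms of miR-30b and miR-30d had a median of -0.35, with 4 of 4 below 0, and those of miR-30e and miR-30c-1 a median of -0.23, with 3 of 3 below 0 (-0.21 and 4 of 4 with miR-30c-1-3p), again in the authors' deposited table; scaled to table totals the 3 medians were 0.21, 0.11 and 0.24. miR-30c-5p is counted in both the first and the last group. The sums of the means were 470151 in AC3-/- and 583298 in WT for the first pair, 192423 and 270737 for miR-30b with miR-30d, and 98502 and 126163 for miR-30e with miR-30c-1. Within each pair the spread between arms was as wide as that between pairs: in the authors' deposited table the arms of miR-30b and miR-30d ran from -0.48 to -0.02, and those of the first pair from -0.31 to 0.00.

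The 5p and 3p arms had medians close to each other, -0.30 and -0.31 in the authors' deposited table, and 0.18 and 0.15 when scaled to table totals.

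miR-30c-1-3p, the 3p arm of the Nfyc precursor of miR-30c, had 59.2 and 74.6 normalised reads in AC3-/- libraries a and b, against 64.8 and 91.2 in WT libraries a and b. It was much scarcer than miR-30c-2-3p in every library, and its genotypes overlapped (in the authors' deposited table, log2 fold change -0.18, p = 0.629). The arms differ by A9G, C12U and U22C, counted from the 5′ end with miR-30c-2-3p first.

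miR-30f, a row of the table outside the list, maps to the strand opposite miR-30e. It is shown because it carries the family's seed letters at its very start, bases 1 to 7, in capitals here:
miR-30f: GUAAACAuccgacugaaagcuc

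RefSeq places miR-30f on the plus strand of chromosome 4 from 120772621 to 120772642, and 19 of its 22 bases lie opposite miR-30e-3p (GRCm38.p6). Its first 10 bases are those of miR-30a-5p and miR-30e-5p from their second base on. It had 1084 and 979 normalised reads in AC3-/- libraries a and b, against 1124 and 1475 in WT libraries a and b. Both AC3-/- libraries were below both WT libraries, as in 16.9% of the miRNAs tested. The gap between AC3-/- library a and WT library a was smaller than the spread within either genotype. In the authors' deposited table miR-30f had a log2 fold change of -0.30 (p = 0.339, adjusted p = 0.9395). Scaled to table totals, the log2 ratio of miR-30f was 0.16. Its mean was 0.145% of the summed 5p arms in AC3-/- and 0.141% in WT, and 43.1% of miR-30e-3p in AC3-/- and 47.4% in WT. Whether these reads come from the opposite strand or from 5p arms of the family was not tested.

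miR-384, which shares the 5p seed, was scarce and varied more between libraries. miR-384-5p had 22.6 and 14.6 normalised reads in AC3-/- libraries a and b, against 6.38 and 85.4 in WT libraries a and b (26, 16, 6 and 73 reads). miR-384-3p had 19.2 and 13.7 in AC3-/- against 3.19 and 104.1 in WT (22, 15, 3 and 89 reads). WT library b held nearly all the reads of both arms in WT, and the AC3-/- libraries lay between the WT libraries. The authors' deposited table gives log2 fold changes of -0.54 for miR-384-5p and -0.59 for miR-384-3p (p = 0.275 and 0.223, adjusted p = 0.9395 for each). The 5p to 3p ratio of miR-384 was 1.18 and 1.07 in AC3-/- libraries a and b, against 2 and 0.820 in WT libraries a and b, so neither arm dominated as the 5p arm does in the miR-30 precursors.

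Other broadly expressed families mostly lay on the same side of 0 by the authors' scaling, and above 0 when scaled to table totals. In the authors' deposited table all 9 let-7 family guide strands were below 0 with a median of -0.19, both miR-26 arms with a median of -0.09, and 2 of 3 miR-29 arms with a median of -0.17. Scaled to table totals their medians were 0.29, 0.39 and 0.31, and 8 of 9, 2 of 2 and 3 of 3 lay above 0. No member of these families passed the adjusted p of 0.05 in the authors' deposited table, and no difference between these families and miR-30 was tested.

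The 6 arms with library values had a mean profile, on the log2 scale and centred over the 4 libraries, of -0.09 (library a) and -0.12 (b) in AC3-/-, against -0.06 (a) and 0.27 (b) in WT. Single arms lay at a root mean square distance of 0.10 to 0.20 from it. Among 246 other miRNAs with library values that averaged 100 or more, the nearest 5 by this distance over the 4 libraries were miR-1843a-5p (0.02), miR-3074-1-3p (0.04), miR-421-3p (0.045), miR-24-1-5p (0.07) and miR-186-5p (0.07), where the median miRNA lay at 0.33. miR-1843a-5p, the nearest, had 2836 and 2815 normalised reads in AC3-/- libraries a and b, against 2877 and 3730 in WT libraries a and b. The profile was flat apart from a higher WT library b, and 52 of the 246 lay nearer to it than the farthest miR-30 arm did, so many miRNAs shared it.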

How the data were processed

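Per the labels' protocols, small RNA was extracted with Trizol, ligated to adaptors at both ends, amplified by PCR and selected by size on a gel; the protocols mention no molecular identifiers, so PCR copies count as separate reads. The authors deposited 1 table. Bowtie, DESeq 1.8.3 and GRCm38 are listed, per the submitters' processing notes, without saying what each did; the sources used here do not name the read counter, its mismatches or its filters. Per the file headers and the values, the deposited abundance columns are a signal, the mean normalised read count of a genotype, and the others are the authors' log2 fold change, its p-value, the adjusted one and a significance mark, set on the 41 rows with an unadjusted p under 0.05. For miRNAs averaging 100 or more, that log2 fold change was typically 86.1% (median) of the plain log2 ratio, and the adjusted p is the Benjamini-Hochberg value over all 1167 rows. No per-sample columns were left unused.

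The members, lists and tests were chosen with earlier results of these data known. The authors' adjusted p of 0.05 is the main test, and medians and counts over arms are descriptions. The text names every listed arm, rows with the 5p seed, miR-30c-1-3p and miR-384, and the 5 nearest profiles; miR-30f was added after its values were seen, as were rows with a mean of at least 10000.

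Reads per library were recovered from the digits of each mean, since 1 read adds a fixed amount in each library. 1 solution was found for 1125 of 1167 AC3-/- rows (96.4%) and 1134 WT rows (97.2%), with size factors of 1.148 and 1.099 (AC3-/- a and b) and 0.941 and 0.855 (WT a and b). No replicate number is known for a or b. limma 3.58.1 (R 4.3.3, variance trend on intensity) was fitted to log2(normalised value + 1) of 449 miRNAs with a mean of at least 10 and library values; adding 1 understates changes of low miRNAs. Recovery and fit were tested on simulated data. Alternatives were other scalings, adjustment over abundant rows, a pseudocount of 10 and leaving out each library. Sequences are from RefSeq (GRCm38.p6) and host genes from GENCODE M21 on GRCm38.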

Additional observations from a re-analysis of the deposited data

How the results depend on the processing

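No miR-30 arm passed the adjusted p of 0.05 under the alternatives that kept all libraries. These were adjustment over rows with a mean of at least 10 or 100, and limma with a pseudocount of 1 or 10, 0 arms each time. Over all miRNAs, 1 passed in each adjustment of the authors' p (0.203% and 0.338%). The limma fits held 6 of the 10 arms. No miRNA passed in limma with either pseudocount, where 16 had an unadjusted p under 0.05 each time. So 0 arms in limma says nothing particular about miR-30. With 1 library left out, its genotype's other library is assumed to vary like the remaining pair, which alone gives the spread. Fits without a library were therefore read for direction only. The medians kept their direction with unshrunken ratios, with ratios centred on abundant rows and with abundant arms only. Scaled to table totals, which moves all miRNAs up by 0.50 by construction, they were 0.17 for all arms, 0.18 for the 5p arms, 0.15 for the 3p arms, 0.21 for miR-30a with miR-30c-2, 0.11 for miR-30b with miR-30d and 0.24 for miR-30e with miR-30c-1, and 1 of 10 arms lay below 0. In limma on recovered libraries the 5p arms are miR-30b-5p alone, at -0.029. With 1 library left out the medians ran from -0.40 to -0.03 for all arms with library values, -0.20 to 0.15 for the 5p arm, -0.44 to -0.14 for the 3p arms, -0.40 to 0.080 for miR-30a with miR-30c-2, -0.36 to -0.24 for miR-30b with miR-30d and -0.48 to 0.16 for miR-30e-3p, and 3 to 6 of 6 arms lay below 0. The lowest count, 3, was without WT library b. Single arms that changed sign in these fits were miR-30a-3p (-0.28 without WT library a, up to 0.36 without WT library b), miR-30b-5p (0.15 without AC3-/- library a and 0.13 without WT library b) and miR-30e-3p (0.16 without WT library b). Without the 10 most abundant rows, miR-30a-5p among them, the other arms came to 9.12% of the smaller total in AC3-/- and 10.5% in WT. The order of the genotypes was reversed there, with both the set of arms and the total changed. The table totals used for scaling were 8739148 for AC3-/- and 12320877 for WT. Within them, the 8 sensory-epithelium markers came to 1805090 normalised reads for AC3-/- and 5418010 for WT. A scaling to totals without these markers was not tested. The cause of the shifts between settings was not tested beyond what the settings themselves set. No paired analysis was possible because the deposited means carry no replicate numbers and the recovered libraries cannot be matched to them. The 4 most abundant 5p arms have no library values, so their spread cannot be checked.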
